A study of Mus musculus with 18 samples.

Results

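The 40 genes described here encode the machinery that stores, docks, fuses and retrieves synaptic vesicles, with the proteins that build the ribbon synapse. They were chosen by gene symbol and are 40 of the 34800 genes left in the count files after ribosomal RNA genes were removed. Whole retinas of male mice were profiled by RNA-seq in 18 libraries, to ask what diabetes does to retinal transcripts and what the antioxidant NACET, N-acetylcysteine ethyl ester, does to them. WT mice were C57BL/6J, and Akita mice were C57BL/6-Ins2Akita/J, which carry 1 mutant copy of the insulin gene Ins2 whose product misfolds and kills pancreatic beta cells, so that males are diabetic from a few weeks of age. Retinas of all 4 groups were taken at 24 weeks of age. The WT group (3 libraries) and the Akita group (4 libraries) drank plain water. The WT + NACET group (6 libraries) and the Akita + NACET group (5 libraries) were given NACET in the drinking water from an age of 4 weeks until 24 weeks, at 0.33 mg/mL, set for a daily dose of 50 mg/kg. The Ins2 mutation is present in the whole body, the drug was given to the whole animal, and the tissue was a mixture of all retinal cells. The sources used here do not say that each library came from a separate animal, so p-values measure the spread between libraries. In bulk retina, fewer cells of a type and less RNA per cell cannot be told apart.

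A photoreceptor releases glutamate without pause in darkness, and its terminal holds vesicles on a plate called the synaptic ribbon, which is anchored beside calcium channels at the active zone. Rods, cones and bipolar cells have ribbons, whereas amacrine and ganglion cells release transmitter from conventional terminals. Fusion at both kinds of synapse is carried out by SNARE proteins and clamped by complexins, and at conventional terminals it is primed by Munc13 proteins. Ribbon terminals use their own syntaxin and complexins and lack synapsins. The members were therefore ordered by role, as 3 vesicle phosphoproteins (synapsins), 5 vesicle membrane proteins, 4 synaptotagmins, 5 SNARE proteins, 4 complexins, 8 scaffold proteins of the active zone and ribbon, 3 priming factors, 2 proteins that take SNARE complexes apart, 3 of the Rab3 group and 3 endocytic proteins.

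Promoter sequences of members were read from RefSeq (GRCm38.p6), in which 34 of the 40 members had 46 windows of 250 bases before a start site. The windows with the letters TAATCC on either strand, the core bound by the photoreceptor factor CRX, are shown. They belong to 3 members, Syp, Sv2b and Ctbp2. Any link of the letters to differences between the groups was not tested. In each line the capitals mark the match, as TAATCC or as its reverse complement GGATTA. The Syp window lies at chrX:7638330-7638579 on the plus strand, the Sv2b windows at chr7:75302610-75302859 and chr7:75309263-75309512 on the minus strand, and the Ctbp2 window at chr7:133015248-133015497 on the minus strand, before the downstream of 2 starts of that gene.
Syp: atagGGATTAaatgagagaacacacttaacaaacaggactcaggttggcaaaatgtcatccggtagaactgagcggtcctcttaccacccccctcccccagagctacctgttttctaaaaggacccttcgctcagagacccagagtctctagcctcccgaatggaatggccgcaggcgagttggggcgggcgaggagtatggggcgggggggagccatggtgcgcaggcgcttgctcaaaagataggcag
Sv2b, first window: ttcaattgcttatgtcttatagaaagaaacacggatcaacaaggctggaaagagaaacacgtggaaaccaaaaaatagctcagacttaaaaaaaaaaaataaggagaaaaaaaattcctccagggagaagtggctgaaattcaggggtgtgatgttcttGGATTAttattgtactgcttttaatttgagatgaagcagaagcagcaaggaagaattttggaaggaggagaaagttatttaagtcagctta
Sv2b, second window: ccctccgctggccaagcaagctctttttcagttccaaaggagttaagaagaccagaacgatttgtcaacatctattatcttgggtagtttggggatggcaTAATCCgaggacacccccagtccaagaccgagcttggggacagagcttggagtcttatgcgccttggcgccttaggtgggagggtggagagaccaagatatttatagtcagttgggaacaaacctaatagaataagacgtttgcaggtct
Ctbp2: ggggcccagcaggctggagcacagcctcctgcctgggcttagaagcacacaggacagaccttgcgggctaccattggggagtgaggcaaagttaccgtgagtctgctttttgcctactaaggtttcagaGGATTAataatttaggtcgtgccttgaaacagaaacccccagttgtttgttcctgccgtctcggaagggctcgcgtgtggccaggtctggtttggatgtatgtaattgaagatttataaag
These 4 windows were 8.7% of the members' 46, beside 6.25% of all 32851 promoter windows. The antioxidant response element core TGACNNNGC, bound by NRF2 with its small MAF partners, was present on either strand in 6 of the 46 windows (13.0%), those of Amph, Erc1, Sypl, Unc13a, Unc13c and Vamp1, beside 10.2% of all windows. The cAMP response element TGACGTCA was present in 1, that of Syn1 (2.17%, beside 1.55% of all). A match is a description of the letters only.

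The libraries held 11495596 to 17814479 counts in genes. One library stood apart in the members: in Akita 4 their root mean square deviation from the group mean was 0.454 on the log2 scale, beside 0.114 to 0.356 in the other 17 libraries. The share of uniquely aligned reads outside annotated exons was 16.3% ± 1.24 in WT, 12.7% ± 2.74 in WT + NACET, 11.5% ± 1.83 in Akita and 16.4% ± 2.11 in Akita + NACET (SD, n = 3, 6, 4 and 5). The summed level of 10 rod markers ranged from 97749 to 133010 CPM (counts scaled to the same library total) in WT, 120760 to 161410 in WT + NACET, 138260 to 208400 in Akita and 89210 to 121450 in Akita + NACET, with the highest value in Akita 4. The summed level of 10 amacrine markers ranged from 2098 to 2887 CPM in WT, 1437 to 2516 in WT + NACET, 1127 to 2033 in Akita and 1845 to 2270.0 in Akita + NACET, with the lowest value in Akita 4. None of the rod or amacrine markers measured was at 0, as retina requires. Lens markers exceeded 1000 CPM in 3 libraries, WT + NACET 5 (25349 CPM), Akita 2 (2988 CPM) and Akita + NACET 3 (1313 CPM).

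**Figure D1:**
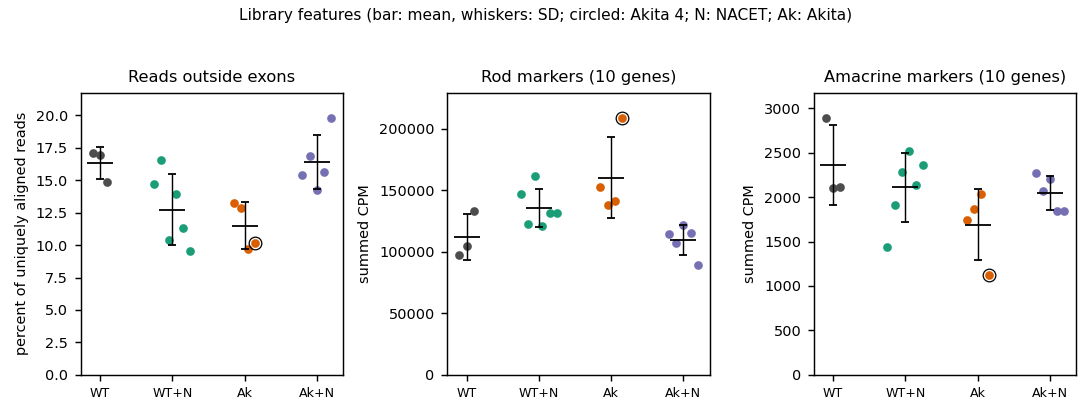
Share of uniquely aligned reads outside exons (percent), and summed CPM of 10 rod and of 10 amacrine markers, with 1 point for each library, the group mean and the SD. Akita 4 (circled) has the highest rod sum and the lowest amacrine sum.

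All 40 members were detected and all passed the filter on low counts, and together they took 1.33% ± 0.091 of the gene counts in WT, 1.29% ± 0.070 in WT + NACET, 1.28% ± 0.024 in Akita and 1.32% ± 0.042 in Akita + NACET (SD). Between genes, levels were compared as CPM per kilobase of exon, averaged over the 18 libraries. Cplx4, a complexin of photoreceptor terminals, was the highest at 938 CPM per kilobase. Snap25, a SNARE of the plasma membrane, followed at 357, and Stx3, the syntaxin of ribbon synapses, at 278. Stx1a, the syntaxin of conventional synapses, stood at 3.57 CPM per kilobase, rank 32. Among the complexins, Cplx3, which is also used at ribbons, stood at 153 CPM per kilobase, and Cplx1 and Cplx2, which conventional synapses use, at 61.6 and 50.6. Sv2b was the highest of the SV2 vesicle glycoproteins (179 CPM per kilobase), ahead of Sv2a (53.2) and Sv2c (1.02). The synapsins ran from 29.1 CPM per kilobase for Syn1 to 5.78 for Syn2 and 0.47 for Syn3, the lowest member. Of the scaffolds, Ctbp2 (38.0) and Rims2 (32.3) exceeded Rims1 (13.0), Pclo (2.76), Erc1 (1.49) and Bsn (0.67), all in CPM per kilobase. Of the 39 neighbours in this order, 26 did not differ by more than the larger of their SDs over libraries. The clear steps included those from Cplx4 to Snap25 and from Snap25 to Stx3.

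**Figure D2:**
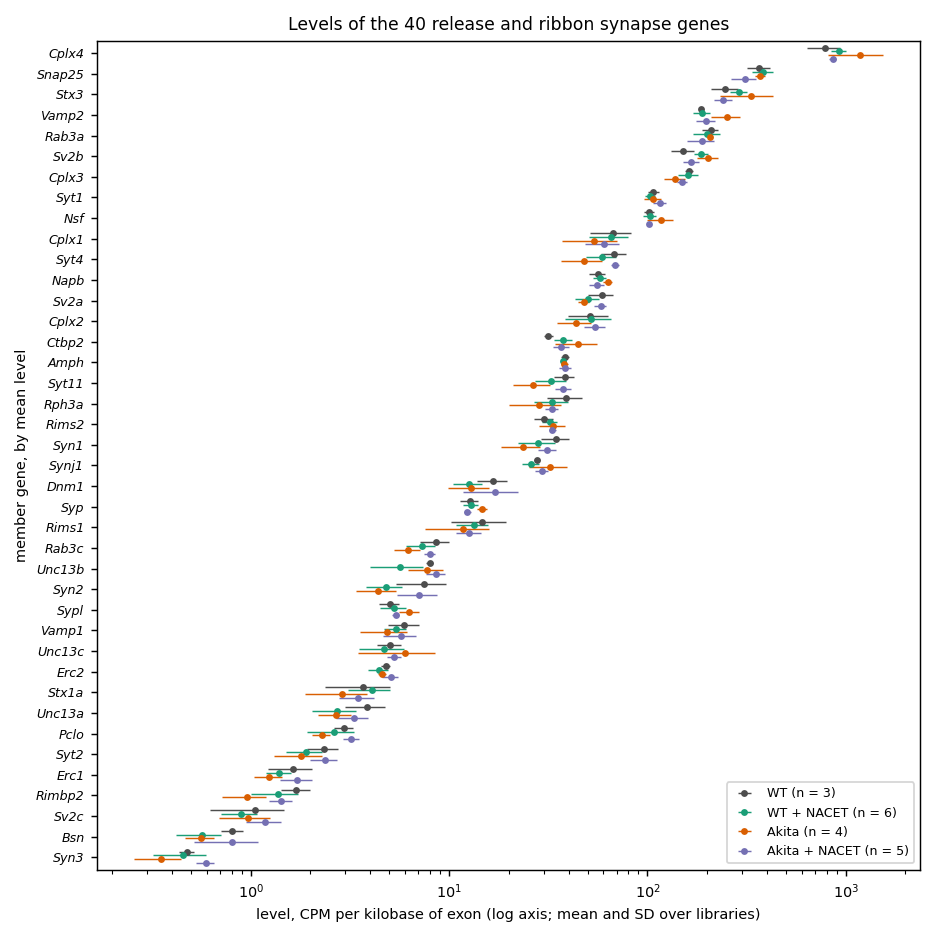
Levels of the 40 members in CPM per kilobase of exon on a log axis, as the mean and SD of each group, ordered by the mean over all libraries. Cplx4 leads with 938 CPM per kilobase and Syn3 is last with 0.47, and the 4 groups lie close together for most members.

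In Akita vs WT, members of the release machinery moved in both directions. Cplx4, Ctbp2, Sv2b and Vamp2 rose, and the synapsin gene Syn2, the scaffold gene Rimbp2 and the vesicle GTPase gene Rab3c fell, by edgeR's quasi-likelihood test with Benjamini-Hochberg adjustment over all 16183 genes tested (adjusted p of at most 0.05). These 7 are 17.5% of the members, where 7.64% of all genes tested were called. The 4 that rose are 10% of the members, beside 3.96% of all genes, and the 3 that fell are 7.5%, beside 3.68%. Over the 40 members, 27 log2 fold changes were negative and 13 positive, with a median of -0.23 beside -0.01 over all genes. The WT and Akita libraries did not overlap in 14 members (35.0%), where 23.2% of all genes did not. With the members moved several cell type markers and the share outside exons. Of the 10 rod markers 3 rose and none fell, of the 10 amacrine markers 6 fell and none rose, and the share outside exons was 11.5% in Akita and 16.3% in WT. In the marker lists of cones, bipolar, horizontal and ganglion cells, microglia, pigment epithelium and lens no gene passed, and in those of Müller glia, astrocytes, endothelium and pericytes 1 gene each did. Their part in the results was not tested.

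The 6 members Ctbp2, Bsn, Pclo, Cplx3, Cplx4 and Stx3 were set apart for a role at ribbon synapses, which need not be their only role. Of these, Ctbp2 and Cplx4 passed the test. Ctbp2 encodes the corepressor CtBP2 and, from an internal start, RIBEYE, the main protein of the ribbon, which gene counts cannot separate. In mm9 it spans chr7:140179246-140316037 on the minus strand, and 5.05% of its exon bases overlap Fgfr2. Its level was 188, 207 and 196 CPM in WT 1 to 3 and 269, 248, 225 and 374 CPM in Akita 1 to 4. All 4 Akita libraries lay above all 3 WT libraries, with Akita 4 far above the rest. The log2 difference was 0.50 ± 0.14 (SE, adjusted p = 0.035). Cplx4 had 1216, 1235 and 1686 CPM in WT and 1878, 1713, 1643 and 3003 CPM in Akita. The groups overlapped by 1 library, since WT 3 exceeded Akita 3, and Akita 4 was again far above the others. The log2 difference of Cplx4 was 0.58 ± 0.17 (SE, adjusted p = 0.041). Stx3 (mm9 chr19:11849609-11893893, minus strand) had 1203, 1053 and 1429 CPM in WT and 1419, 1440.5, 1348 and 2381 CPM in Akita, with Akita 4 the highest and the groups overlapping. Its log2 difference of 0.42 ± 0.17 (SE, adjusted p = 0.111) did not pass.

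Cplx3, the other ribbon complexin, had 456, 485 and 442 CPM in WT and 442, 407, 327 and 389 CPM in Akita. All 4 Akita libraries were below the WT libraries, Akita 1 only just, and the log2 difference of -0.24 ± 0.11 (SE, adjusted p = 0.179) did not pass. The scaffold genes Bsn and Pclo encode Bassoon, which ties the ribbon to the active zone, and Piccolo. Bsn lies at chr9:107998354-108092715 on the minus strand of mm9, with 11.4% of its exon bases overlapped by F630040L22Rik, and Pclo at chr5:14514918-14863457 on the plus strand. Bsn was at 11.7, 14.7 and 12.2 CPM in WT and 8.49, 10.1, 6.97 and 10.03 CPM in Akita, and Pclo at 65.6, 52.9 and 61.8 CPM in WT and 47.1, 51.6, 39.7 and 47.8 CPM in Akita. In both genes every Akita library was below every WT library. The log2 difference was -0.53 ± 0.25 (SE, adjusted p = 0.179) for Bsn and -0.37 ± 0.18 (SE, adjusted p = 0.188) for Pclo. Rimbp2 encodes a protein that links RIM scaffolds to calcium channels, and is a low member, with 7.68, 8.15 and 5.90 CPM in WT and 4.98, 3.42, 3.01 and 4.89 CPM in Akita. The groups did not overlap, and Akita 4 lay within the other Akita libraries. Its log2 difference was -0.83 ± 0.23 (SE, adjusted p = 0.034), and the level fell by 43.9%. Of the other scaffold genes, Rims1, Rims2, Erc1, Erc2 had log2 differences of -0.32, 0.15, -0.39 and -0.07, and none passed.

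Among the vesicle proteins, 1 of the 3 synapsin genes, Syn2, fell in Akita and Sv2b rose. Synapsins coat vesicles and hold them in reserve. Syn2 (mm9 chr6:115084920-115232644, plus strand) had 55.5, 40.8 and 31.6 CPM in WT and 21.6, 31.0, 28.6 and 19.0 CPM in Akita, with every Akita library below every WT library by a narrow margin at the edge. The log2 difference was -0.76 ± 0.23 (SE, adjusted p = 0.046), and the level fell by 41.1%. Syn1 was at 115 ± 18.8 CPM in WT and 77.4 ± 16.9 CPM in Akita, with a log2 difference of -0.56 ± 0.19 (SE, adjusted p = 0.069). Syn3 was at 6.39, 5.60 and 5.54 CPM in WT and 5.75, 3.88, 4.58 and 3.07 CPM in Akita, with overlap and a log2 difference of -0.43 ± 0.23 (SE, adjusted p = 0.240). Sv2b, a vesicle glycoprotein gene, had 802, 792 and 995 CPM in WT and 1106, 1039, 1112 and 1366 CPM in Akita. The groups did not overlap, and Akita 4 was the highest. The log2 difference was 0.42 ± 0.12 (SE, adjusted p = 0.039). Its relative Sv2a went the other way without passing, with 312, 271 and 234 CPM in WT, 231, 230.2, 222 and 200.4 CPM in Akita and a log2 difference of -0.30 ± 0.12 (SE, adjusted p = 0.111). Syp, synaptophysin, was at 66.2 ± 6.84 CPM in WT and 76.7 ± 4.34 CPM in Akita (log2 difference 0.21 ± 0.09 (SE, adjusted p = 0.137)), and Sypl and Sv2c had log2 differences of 0.33 and -0.10.

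Vamp2, synaptobrevin, the SNARE of the vesicle, had 728, 713 and 693 CPM in WT and 972, 875, 804 and 1172 CPM in Akita. Every Akita library was above every WT library, and the log2 difference was 0.43 ± 0.13 (SE, adjusted p = 0.045). Snap25, Stx1a and Vamp1, the other SNARE genes beside Stx3, had log2 differences of 0.01, -0.35 and -0.30 and did not pass. Rab3c, a vesicle GTPase, had 90.9, 69.5 and 68.9 CPM in WT and 54.4, 59.1, 63.3 and 43.8 CPM in Akita, with no overlap and Akita 4 the lowest. Its log2 difference was -0.47 ± 0.14 (SE, adjusted p = 0.048). Rab3a and the Rab3 effector Rph3a, rabphilin, had log2 differences of -0.01 and -0.46.

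The synaptotagmins Syt4 and Syt11, which do not serve as the fast calcium sensor, lay close to the threshold. Syt4 had 309, 239 and 248 CPM in WT and 212, 208, 203 and 121 CPM in Akita, and Syt11 had 228, 186 and 187 CPM in WT and 159, 157, 146 and 96.4 CPM in Akita. In both, all Akita libraries were below all WT libraries and Akita 4 was lower still. Of the exon bases of Syt4, 14.7% overlap Gm16871. The log2 difference was -0.51 ± 0.17 (SE, adjusted p = 0.062) for Syt4 and -0.52 ± 0.16 (SE, adjusted p = 0.054) for Syt11. The fast calcium sensors Syt1 and Syt2 had log2 differences of -0.01 and -0.37. Of the Munc13 priming genes, Unc13b had 104, 107 and 113 CPM in WT and 91.8, 109, 85.8 and 133 CPM in Akita, with overlap and a log2 difference of -0.04. Unc13a (-0.53) and Unc13c (0.25) did not pass either. The same was true of Cplx1 (-0.31) and Cplx2 (-0.23), of Nsf (0.20) and Napb (0.17), which take SNARE complexes apart, and of the endocytic genes Dnm1 (-0.38), Amph (-0.01) and Synj1 (0.22).

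The 7 calls did not hold in every refit with 1 library left out. No member passed without WT 1, without WT 2 or without Akita 4, and 1 passed without Akita 1, although all 7 kept their direction. The calls over all genes fell too, and 0 passed without WT 1 or WT 2, 234 without Akita 4 and 868 without Akita 1, beside 1237 with all libraries. Without Akita 4, the log2 difference of Cplx4 was 0.34 and that of Ctbp2 0.33 (adjusted p = 0.119 and 0.103).

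**Figure D3:**
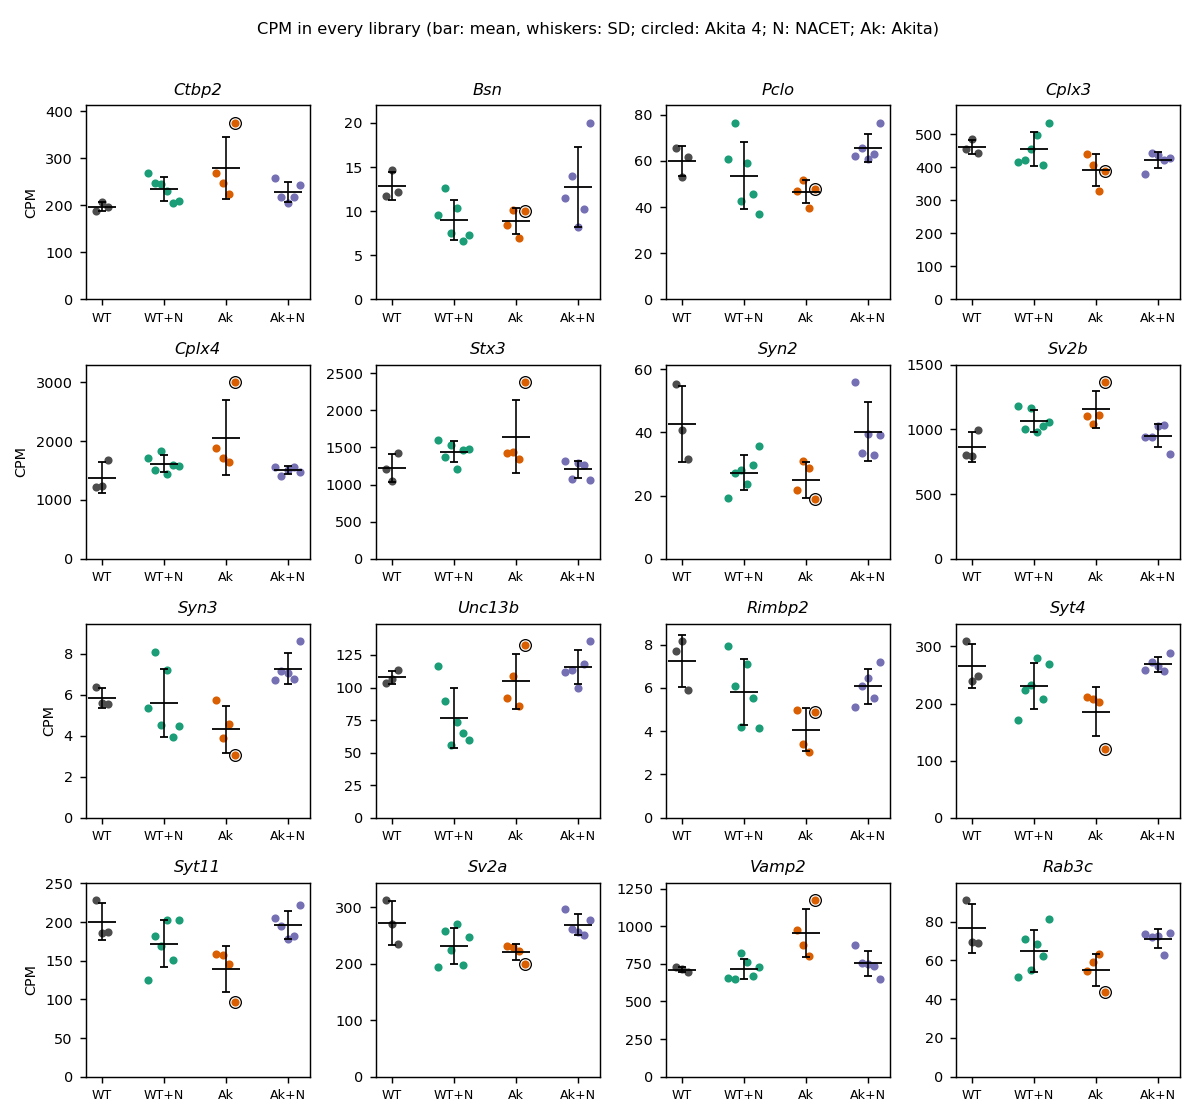
CPM in every library for the 6 ribbon members and the 10 other members with the smallest p among those called, with the group mean and SD (WT, 3 libraries; WT+N, WT + NACET, 6; Ak, Akita, 4; Ak+N, Akita + NACET, 5). Akita 4 (circled) is the highest Akita library for Cplx4 (3003 CPM) and the lowest for Syt4 (121 CPM).

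In Akita + NACET vs Akita, the synapsin genes Syn2 and Syn3 and the synaptotagmin genes Syt4 and Syt11 rose and Syp fell. These 5 are 12.5% of the members, where 9.65% of all genes tested were called. The 4 that rose are 10%, beside 4.51% of all genes, and the 1 that fell is 2.5%, beside 5.14%. Over the members 26 log2 fold changes were positive and 14 negative, with a median of 0.15. The groups did not overlap in 12 members (30.0%), where 14.1% of all genes did not. This comparison shares its 4 Akita libraries with the one above, so its values are given as they stand. Rod markers and the share outside exons moved here as well, with 6 of 10 rod markers and 4 of 9 cone markers lower, 2 of 10 amacrine and 2 of 9 cone bipolar markers higher, and a share outside exons of 16.4% against 11.5%. Their part was not tested.

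Syn2 had 56.0, 33.5, 39.6, 32.9 and 39.3 CPM in Akita + NACET 1 to 5, all above the Akita libraries, with the first far above the others. The log2 difference was 0.68 ± 0.20 (SE, adjusted p = 0.042). Syn3 had 6.75, 7.19, 7.08, 6.77 and 8.62 CPM, again with no overlap, and a log2 difference of 0.75 ± 0.21 (SE, adjusted p = 0.032). Of the exon bases of Syn3, 14.1% overlap Timp3, which lies within it, and reads in these bases were left out as ambiguous, since the counts do not use strand. Syt4 had 259, 273, 266, 257 and 288 CPM and Syt11 had 205, 195, 178, 181 and 223 CPM. In both genes the 5 treated libraries were tightly grouped and above all Akita libraries. The log2 differences were 0.53 ± 0.15 (SE, adjusted p = 0.035) and 0.49 ± 0.15 (SE, adjusted p = 0.04). Syp was at 64.2 ± 2.60 CPM, beside 76.7 ± 4.34 in Akita, with no overlap and a log2 difference of -0.26 ± 0.08 (SE, adjusted p = 0.046), and 16.8% of its exon bases overlap Gm14703.

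Cplx4, Stx3, Ctbp2, Sv2b and Vamp2, whose means were above WT in the same Akita libraries, were lower with NACET but missed the threshold. Since the Akita libraries serve in both comparisons, a lower value here is partly built in. Cplx4 had 1564, 1409.8, 1502, 1568 and 1468 CPM in Akita + NACET, below every Akita library, with a log2 difference of -0.46 ± 0.15 (SE, adjusted p = 0.051). Stx3 had 1319, 1077, 1292, 1258 and 1068 CPM, also below every Akita library, with a log2 difference of -0.45 ± 0.14 (SE, adjusted p = 0.051). Ctbp2 had 257, 217, 205, 218 and 243 CPM, which overlapped the Akita range. Its log2 difference was -0.29 ± 0.12 (SE, adjusted p = 0.119). Sv2b had 938, 943, 1024, 1034 and 812 CPM, all below the Akita libraries, with a log2 difference of -0.28 ± 0.10 (SE, adjusted p = 0.084). Vamp2 had 874, 754, 751, 738 and 647 CPM, with 1 library inside the Akita range, and a log2 difference of -0.34 ± 0.11 (SE, adjusted p = 0.051).

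The scaffold genes were higher on average without passing. Pclo had 61.9, 65.5, 60.8, 63.1 and 76.3 CPM in Akita + NACET, all above the Akita libraries, with a log2 difference of 0.49 ± 0.16 (SE, adjusted p = 0.053). Bsn had 11.5, 14.0, 8.17, 10.3 and 19.985 CPM, with a wide spread that overlapped Akita, and a log2 difference of 0.52 ± 0.22 (SE, adjusted p = 0.129). Rimbp2 had 5.10, 6.07, 6.45, 5.53 and 7.18 CPM, just above the highest Akita library, with a log2 difference of 0.58 ± 0.21 (SE, adjusted p = 0.073). Cplx3 had 379, 443, 438, 424 and 428 CPM, which overlapped Akita, with a log2 difference of 0.11. Sv2a had 298, 262, 257, 251 and 278 CPM, all above Akita, with a log2 difference of 0.28 ± 0.11 (SE, adjusted p = 0.085). Rab3c had 73.7, 72.1, 72.7, 62.5 and 74.3 CPM, with 1 library just inside the Akita range, and a log2 difference of 0.36 ± 0.13 (SE, adjusted p = 0.068). Unc13b had 112, 114, 99.5, 118 and 136 CPM, within the Akita range but for 1 library, and a log2 difference of 0.14. Among the members with group means only, Syn1 was at 103 ± 10.3 CPM, Erc1 at 16.7 ± 3.02 CPM against 12.03 ± 1.97 in Akita, and Unc13a at 28.3 ± 5.19 CPM against 23.0 ± 4.41, with log2 differences of 0.41, 0.47 and 0.30. The other members lay between -0.26 for Snap25 and 0.40 for Dnm1, and none passed.

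No member passed without Akita 4, without Akita + NACET 2 or without Akita + NACET 5, and of all genes 1, 425 and 101 passed, beside 1562 with all libraries. Without Akita 4 the 5 log2 differences kept their direction, between -0.25 and 0.62 (adjusted p from 0.095 to 0.131).

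**Figure D4:**
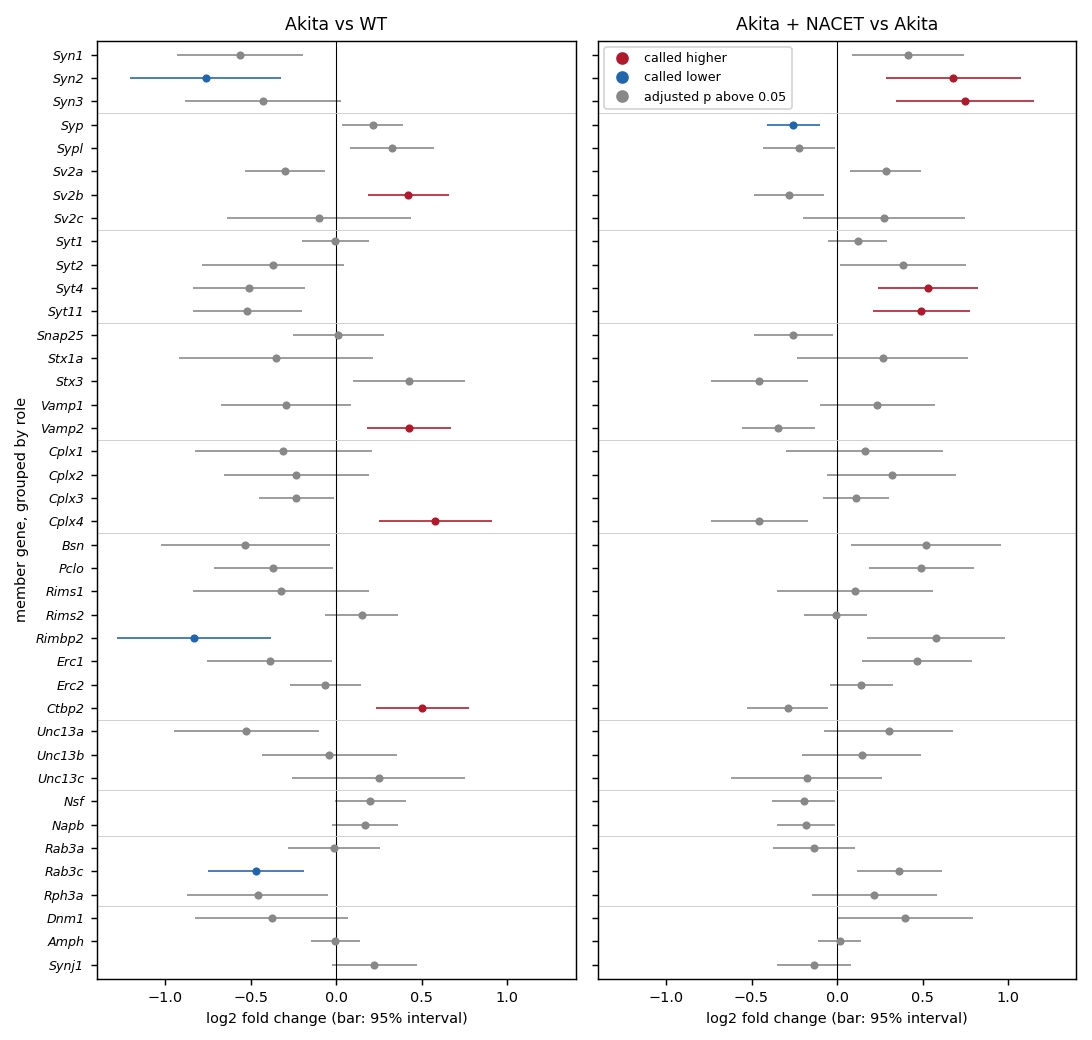
Log2 fold changes of the 40 members, grouped by role, for the Akita group against WT (left) and for Akita + NACET against Akita (right), with bars for the 95% interval. Red marks members called higher (4 in each panel), blue those called lower (3 and 1), and grey the others. The panels share the 4 Akita libraries.

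In WT + NACET vs WT no member passed the test, where 1.48% of all genes did. At an unadjusted p under 0.05 there were 6 members, Syn2, Sv2b, Unc13b, Unc13a, Bsn and Sv2a, beside 3162 of all genes (19.5%). DESeq2 also called no member with all groups in the fit, and called 2 with only these groups. Of the 34800 genes in these fits it called 705 and 938. Syn2 ranged from 19.2 to 35.9 with a median of 27.7 CPM in WT + NACET and overlapped WT at its upper end, with a log2 difference of -0.64 ± 0.21 (SE, adjusted p = 0.109). Sv2b ranged from 976 to 1179 with a median of 1041 CPM, with 1 WT library inside this range, and a log2 difference of 0.31 ± 0.11 (SE, adjusted p = 0.146). Unc13b ranged from 55.5 to 116 with a median of 69.3 CPM, with a single treated library above the WT values and the other 5 below them. Its log2 difference was -0.49 ± 0.18 (SE, adjusted p = 0.158). Bsn ranged from 6.60 to 12.6 with a median of 8.58 CPM (log2 difference -0.51 ± 0.23 (SE, adjusted p = 0.227)) and Sv2a from 194 to 269.9 with a median of 236 CPM (log2 difference -0.23 ± 0.11 (SE, adjusted p = 0.249)). Unc13a was at 23.3 ± 5.82 CPM, beside 33.1 ± 7.59 in WT (log2 difference -0.51 ± 0.20 (SE, adjusted p = 0.172)).

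The other ribbon members overlapped WT in this comparison. Ctbp2 ranged from 204 to 269 with a median of 238 CPM, with a log2 difference of 0.25. Cplx4 ranged from 1439 to 1836 with a median of 1585 CPM (0.23) and Stx3 from 1206 to 1602 with a median of 1472 CPM (0.23). Cplx3 ranged from 406 to 534 with a median of 439 CPM (-0.02) and Pclo from 37.0 to 76.3 with a median of 52.4 CPM (-0.16), with the log2 difference in brackets. Of the called members of the comparisons above, Vamp2 ranged from 651 to 823 with a median of 698 CPM (0.01) and Rimbp2 from 4.16 to 7.92 with a median of 5.80 CPM (-0.31). Rab3c ranged from 51.6 to 81.2 with a median of 65.3 CPM (-0.24), and Syn3 from 3.92 to 8.08 with a median of 4.95 CPM (-0.06). Syt4 ranged from 172 to 280.4 with a median of 229 CPM (-0.20) and Syt11 from 124 to 203 with a median of 176 CPM (-0.22). None of these passed. Over all 40 members the log2 differences ran from -0.64 to 0.31.

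Akita + NACET retinas were then set against untreated WT. No member passed, where 0.00618% of all genes (1 gene) did, no member had an unadjusted p under 0.05, and DESeq2 called none. The log2 differences ran from -0.25 for Rimbp2 to 0.32 for Syn3, with a median size of 0.09 beside 0.11 over all genes and a median SE of 0.16. For Cplx4 the difference was 0.12, for Ctbp2 0.21, for Syn2 -0.08 and for Syt4 0.02.

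Between the treated groups, Akita + NACET vs WT + NACET, Syn2 (log2 difference 0.56 ± 0.18 (SE, adjusted p = 0.045)) and the priming gene Unc13b (0.59 ± 0.16 (SE, adjusted p = 0.023)) were higher in Akita + NACET. These 2 are 5.0% of the members, where 13.3% of all genes were called. In both genes the groups overlapped, since 1 WT + NACET library of each reached into the Akita + NACET range. Of the markers, 7 of 10 of microglia, 5 of 9 of cones and 4 of 10 of rods were lower in Akita + NACET, and the share outside exons was 16.4% against 12.7%. Their part was not tested. No member passed without WT + NACET 3, without WT + NACET 5 or without Akita + NACET 5, where 1124, 1266 and 860 of all genes did, beside 2148 with all libraries.

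Whether the NACET difference itself differed between the genotypes was tested as the interaction, the log2 difference with NACET in Akita minus that in WT. It passed in 15 members (37.5%), where 20.3% of all genes were called. In 11 members (27.5%, beside 10.1% of all genes) it was positive and in 4 (10%, beside 10.2%) negative. By role, the positive members were the synapsins Syn1 (0.72 ± 0.24 (SE, adjusted p = 0.042)) and Syn2 (1.32 ± 0.29 (SE, adjusted p = 0.0065)), the glycoprotein gene Sv2a (0.52 ± 0.15 (SE, adjusted p = 0.024)), the synaptotagmins Syt4 (0.73 ± 0.21 (SE, adjusted p = 0.023)) and Syt11 (0.71 ± 0.21 (SE, adjusted p = 0.023)) and the GTPase gene Rab3c (0.60 ± 0.18 (SE, adjusted p = 0.026)). The scaffold genes among them were Bsn (1.03 ± 0.32 (SE, adjusted p = 0.029)), Pclo (0.66 ± 0.23 (SE, adjusted p = 0.046)), Rimbp2 (0.89 ± 0.29 (SE, adjusted p = 0.037)) and Erc1 (0.70 ± 0.24 (SE, adjusted p = 0.043)), with the priming gene Unc13a (0.81 ± 0.28 (SE, adjusted p = 0.045)). The negative members were Ctbp2 (-0.54 ± 0.18 (SE, adjusted p = 0.036)), Cplx4 (-0.68 ± 0.21 (SE, adjusted p = 0.031)), Stx3 (-0.68 ± 0.21 (SE, adjusted p = 0.029)) and Sv2b (-0.59 ± 0.15 (SE, adjusted p = 0.013)). Picking members by the interaction favours opposite signs, and in each of the 15 the log2 differences with NACET had opposite signs in the genotypes. For Syn2 they were -0.64 in WT and 0.68 in Akita, and for Stx3 0.23 and -0.45. Of the 10 rod markers 9 had a negative interaction that passed, and of the 10 amacrine markers 4 a positive one.

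Without Akita 4, 13 members passed in the interaction, 11 of them among the 15 called with all libraries. Without WT 1 or WT 2, 2 and 5 passed. Without Akita + NACET 2, Akita + NACET 5 or WT + NACET 3, 8, 8 and 9 passed. Of all genes 3013, 1699, 1730, 2577, 2449 and 2455 passed in these refits, in the order given, beside 3289 with all libraries. With the share outside exons as a covariate no member and 17 of all genes passed, and Bsn (-0.13) and Pclo (-0.16) changed sign.

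**Figure D5:**
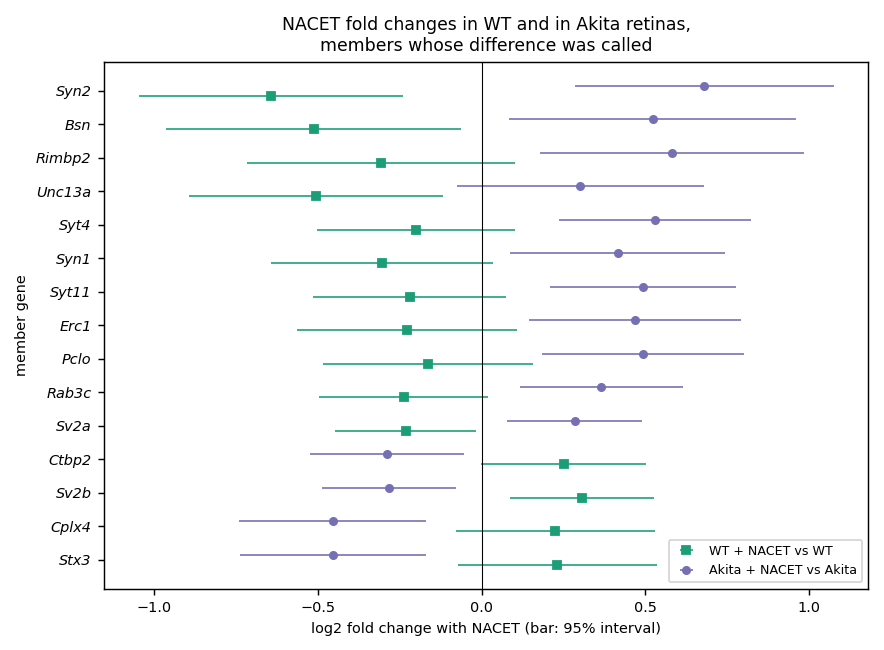
Log2 fold change with NACET in WT (squares) and in Akita (circles) for the 15 members whose difference between the genotypes was called, with bars for the 95% interval. The 2 values of each member lie on opposite sides of 0, with Ctbp2, Sv2b, Cplx4 and Stx3 above 0 in WT and below 0 in Akita, and the other 11 the reverse. Members were picked by the difference between these values, which favours opposite sides.

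Related synaptic genes were counted in 5 lists of 176 genes, of which 171 were tested. In Akita vs WT, 13 were higher and 14 lower (15.8%, beside 7.64% of all genes). Of the 16 channel and terminal partners of the ribbon synapse, 3 rose and 4 fell. Slc1a7, a glutamate transporter of photoreceptor and bipolar terminals, Kif3b, a kinesin motor subunit, and Tulp1, a photoreceptor protein, rose (log2 difference 0.61, 0.53 and 0.52). The calcium channel genes Cacna2d1 and Cacna1d and the calcium sensor gene Cabp1 fell (-0.81, -1.04 and -0.55). Among 24 vesicle transporters and pump subunits, Slc17a7, the vesicular glutamate transporter VGLUT1 of ribbon terminals, and Atp6v0e2 rose (0.62 and 0.47). The amacrine vesicular glutamate transporter gene Slc17a8 and the glycine transporter gene Slc6a9 were among 4 that fell (-0.94 and -0.66). Of 57 other release genes, Lin7c and the cysteine string protein gene Dnajc5 rose (0.56 and 0.46), and the adhesion gene Nrxn3 and the priming gene Cadps were among 4 that fell (-1.06 and -0.69). Of 33 transsynaptic partners 4 rose, Dlg4, which encodes PSD-95, Egflam, which encodes pikachurin, and Gnb5 among them (0.66, 0.66 and 0.53), and Flrt3 and Rgs11 fell (-0.50 and -0.66). Of 41 endocytosis genes, Rab11b and Sh3glb1 rose (0.39 and 0.44).

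In Akita + NACET vs Akita, which shares the Akita libraries, 16 of the 171 were higher and 11 lower (15.8%, beside 9.65% of all genes). Of the ribbon partners Cacna1d, Cacna2d1 and the calcium pump gene Atp2b2 were among 4 that rose (0.89, 0.61 and 0.74), and Slc1a7, the calcium sensor gene Cabp4 and the photoreceptor channel subunit gene Cacna2d4 fell (-0.60, -0.45 and -0.40). Of the transporters Slc32a1, the vesicular GABA and glycine transporter, was among 2 that rose (0.57), and Slc17a7 was among 4 that fell (-0.53). Of the other lists Nrxn3 and Syt13 were among 5 release genes that rose (0.92 and 0.60), Lin7c fell (-0.40), Nlgn1, Nlgn3 and Elfn2 were among 4 transsynaptic partners that rose (0.64, 0.63 and 0.66), Dlg4 and Egflam fell (-0.74 and -0.49), and in endocytosis Dnm3 rose (0.27) and Epn1 fell (-0.30). Without Akita 4, 6 of the 171 passed in Akita vs WT and 1 in Akita + NACET vs Akita. Of all genes, 234 and 1 did. Without WT 1 or WT 2 none of the 171 and none of all genes passed in the first comparison. Without Akita + NACET 2 or 5 there were 7 and 3 in the second, beside 425 and 101 of all genes.

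In WT + NACET vs WT, 1 of the 171 was higher and 2 were lower (beside 1.48% of all genes). Dlg4 was higher (0.52), and Elfn2 was among the lower (-1.09). The labels give all WT mice as C57BL/6J, and any difference between the WT groups beyond NACET cannot be told apart from NACET in the comparisons that use WT + NACET, the interaction included.

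The members differed from other genes in length. Their median exon length was 5700 bases beside 3420 bases over all genes, and the GC content was alike, 49.8% in both. Over the 40 members, Spearman's rho of the Akita vs WT log2 difference was -0.10 with exon length and -0.40 with GC content, and that of the difference between Akita + NACET and Akita 0.20 and 0.29. Over all genes, rho was -0.14 and -0.05 for Akita vs WT, and 0.23 and 0.01 for Akita + NACET vs Akita. These are descriptions over genes that share the same libraries. With offsets for length and GC content, 4 members passed between Akita and WT, 7 between Akita + NACET and Akita and 6 for the interaction, beside 1769, 1801 and 2897 of all 16071 genes with a length and GC content.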

How the data were processed

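The 18 libraries of whole retina RNA, from male mice, were grouped by the sample labels. Per the study's methods and the submitters' processing notes, the authors made poly(A) libraries (TruSeq v2, single end, NextSeq), aligned reads to mm9 with TopHat2 2.1.0 and counted reads over exons with HTSeq 0.11.2 without regard to strand. The deposited values are these raw counts. Reads aligned to several places (9.04%) and ambiguous reads (1.07%) stayed out of the counts, which lowers near-identical and overlapping genes. An entry without a name (0.0054% of counts) and, as in the study, ribosomal RNA genes (206 genes, 0.977% of counts) were removed. No pair of replicates agreed within sampling noise.

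Of 34800 genes, 16183 passed the edgeR filter by group (minimum count 10, minimum total 15). Differences were tested with edgeR 4.0.16 in R 4.3.3 (TMM, robust quasi-likelihood F test, 4 groups in 1 fit, Benjamini-Hochberg over all genes tested, adjusted p of at most 0.05, no minimum fold). The test was tested on simulated data. SEs come from the F statistic, 95% intervals use the normal quantile, and CPM uses TMM library sizes. Alternatives were DESeq2 1.42.0, other scaling, filters, offsets and covariates, the replicate block and leaving out each library. The smaller depth of low members such as Syn3 and Sv2c gives them the larger counting error. Exon lengths and loci came from the mm9 annotation, and promoters from RefSeq (GRCm38.p6), which served for sequence only.

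Members, gene lists and markers were chosen with earlier results of these data known. Values in every library are given for 6 ribbon members fixed by role and for at most 12 called members with the smallest p, and related genes are named by smallest p, at most 3 in each direction, comparison and list. Some related genes that this rule would name are not reported here, although the counts include them.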

Additional observations from a re-analysis of the deposited data

Results flagged for a closer look

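A sample stood far from the others of its group, by the gap to its nearest neighbour over the group's range, in 11 of 120 member and group combinations, where about 6 are expected by chance at 1 in 20. Of these, 7 were in Akita 4. It was the lowest Akita library for Syt2 (7.38 CPM), Syt4 (121 CPM), Stx1a (3.73 CPM), Vamp1 (25.9 CPM) and Cplx2 (152 CPM), and the highest for Stx3 (2381 CPM) and Synj1 (344 CPM). In Akita + NACET, library 1 was the highest for Syn2 (56.0 CPM), library 5 the highest for Syn3 (8.62 CPM) and the lowest for Sypl (37.7 CPM), and library 4 the lowest for Rab3c (62.5 CPM).

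The NACET difference in Akita minus that in WT passed the test in 15 members. On the log2 scale it was 1.32 for Syn2, 1.03 for Bsn, 0.89 for Rimbp2, 0.81 for Unc13a, 0.73 for Syt4, 0.72 for Syn1, 0.71 for Syt11, 0.70 for Erc1, 0.66 for Pclo, 0.60 for Rab3c and 0.52 for Sv2a. It was -0.54 for Ctbp2, -0.59 for Sv2b, -0.68 for Cplx4 and -0.68 for Stx3.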

How the results depend on the processing

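Of 617 refits of the 29 single-member results, 371 kept direction and call, 244 lost the call and 2 reversed, those of Bsn (-0.13) and Pclo (-0.16) in the interaction with the share outside exons as a covariate. With that covariate no member passed in any of the 6 comparisons, and of the related genes 0 passed between Akita and WT, 0 in Akita + NACET vs Akita, 1 in WT + NACET vs WT, 3 in Akita + NACET vs WT + NACET and 1 in the interaction. Of all 16183 genes, this covariate fit called 0 for Akita against WT, 0 for Akita with against without NACET, and 17 for the interaction. It called 61 for WT with against without NACET, 1 for Akita + NACET against WT and 194 between the treated groups. The share averaged 11.5% in Akita, 16.3% in WT and 16.4% in Akita + NACET, and Akita overlapped neither. The fit therefore cannot separate share from group where Akita is compared with either, and this was not tested. In Akita vs WT, the main fit called 7 members and 1237 of all genes. With only the groups compared in edgeR these counts were 0 and 148, and without a filter 3 and 880. They were 4 and 1769 with GC and length offsets, and 8 and 1280 with a mean count of at least 50. With DESeq2 in all groups they were 10 and 2080. The totals behind these counts differ from 16183. DESeq2 fits held 34800 genes, and edgeR held 27409 without a filter. With a mean count of at least 50 edgeR held 12204, and with only Akita and WT it held 15334. Of the related genes (27), 4 passed with the groups compared only and 41 with DESeq2. In Akita + NACET vs Akita (5 members and 1562 of all genes), DESeq2 called 12 and 2387 with all groups. With the groups compared only it called 11 and 1775, and in edgeR without a filter 2 and 1010 passed. Of the related genes (27), 44 passed with DESeq2 in all groups and 16 with edgeR in the groups compared, where 700 of all genes did. In WT + NACET vs WT (0 members and 240 of all genes), DESeq2 on these groups called 2 members and 938 of all genes. Of the related genes (3), DESeq2 called 12 with these groups and 10 with all groups, where 705 of all genes passed. Without a filter 5 related genes and 211 of all genes passed, and with a mean count of at least 50, 5 and 302. In Akita + NACET vs WT + NACET (2 members and 2148 of all genes), DESeq2 on these groups called 4 members and 3033 of all genes. It called 33 related genes, beside 20 in the main fit. Without a filter 1 member and 1610 of all genes passed, and offsets left 1 member, 10 related genes and 1523 of all genes. In the interaction (15 members and 3289 of all genes), offsets left 6 and 2897.

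The numbers of the replicates do not pair the samples: of 22 same-numbered pairs, 4 had a correlation of deviations over 0.1 (range -0.33 to 0.34). With the replicate block 1 member passed between Akita and WT, 0 in Akita + NACET vs Akita, 1 in Akita + NACET vs WT + NACET and 8 in the interaction. Of all 16183 genes 507, 219, 1363 and 2656 passed in that order. Of the related genes 9 passed between Akita and WT and 5 in Akita + NACET vs Akita.

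Leaving out each library in turn, members called ranged from 0 to 6 between Akita and WT, 0 to 6 in Akita + NACET vs Akita, 0 to 1 in WT + NACET vs WT, 0 to 0 in Akita + NACET vs WT, 0 to 3 in Akita + NACET vs WT + NACET and 2 to 16 in the interaction. Related genes ranged from 0 to 33, 1 to 29, 1 to 5, 0 to 0, 8 to 25 and 30 to 58 in that order. Calls over all genes ranged from 0 to 1515, 1 to 1754, 72 to 329, 0 to 2, 860 to 2422 and 1699 to 3524. With 3 WT libraries, the spread of WT rests on few samples. The order of levels by the longest transcript in place of all exons had a rho of 0.991 with the order given.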
